A study of Mus musculus with 6 samples.

Results

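The clock output factors are a set of 9 genes through which the circadian clock reaches other genes. They were listed by name, with earlier results of these data known, so that their number of calls is a description: the 3 PAR bZIP activators Dbp, Tef and Hlf, their repressor Nfil3, the paired repressors Bhlhe40 and Bhlhe41, the repressor Ciart, the nuclear receptor Rora, and Usp2, which encodes a deubiquitinating enzyme and not a transcription factor. All 9 were found among the 56262 genes counted, and all 9 were among the 17120 genes with enough read pairs to be tested. RNA of whole lungs from 3 R/R mice was compared with that of 3 WT littermates, all 8 weeks of age and untreated. R/R mice carry the substitutions K329R and K332R on both alleles of RBM47, an RNA-binding protein, as a germline knock-in made by CRISPR/Cas on the C57BL/6 background, so that every cell of the lung carries them. The comparison asks how the clock output factors differ in lungs without the lysines that the knock-in replaces, which the study made to stop the attachment of ISG15, a ubiquitin-like protein, to RBM47. Both groups were kept with lights on at 6 and off at 18 hours. The hour at which each lung was taken is not given in the sources used here.

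In the mammalian clock, BMAL1 (encoded by Arntl) pairs with CLOCK or NPAS2 and activates genes that carry an E-box, among them the Per, Cry and Nr1d genes, whose products then repress this activity. PAR bZIP factors are transcribed under E-box control and peak late in the light phase. They activate genes through a D-box, the element that NFIL3, which peaks in the opposite phase, binds as a repressor. RORA activates and the NR1D proteins repress genes with a ROR element (RORE), Arntl and Nfil3 among them. In the lung, BHLHE40 and BHLHE41 also have a role outside the clock, in the identity and self-renewal of alveolar macrophages.

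DBP, TEF, HLF and NFIL3 share one DNA element because their basic regions, the part of the protein that contacts DNA, are alike. The 90 coding bases of that region are shown for the 4 genes, since the activators and their repressor differ in the direction of their values in R/R lungs. They were read 5′ to 3′ from the transcripts Dbp-201, Tef-201, Hlf-201 and Nfil3-201 of GENCODE M21 (GRCm38). The first 3 are joined from exons 3 and 4, and that of Nfil3 lies within its exon 2 (chr13:52968573-52968662, minus strand). Capitals mark the 45 positions at which all 4 genes carry the same base.
Dbp: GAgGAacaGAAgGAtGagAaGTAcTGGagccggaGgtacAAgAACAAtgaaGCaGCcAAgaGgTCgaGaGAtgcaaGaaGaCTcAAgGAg
Tef: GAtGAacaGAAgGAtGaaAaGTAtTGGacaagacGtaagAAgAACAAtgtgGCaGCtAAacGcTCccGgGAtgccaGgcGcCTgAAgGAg
Hlf: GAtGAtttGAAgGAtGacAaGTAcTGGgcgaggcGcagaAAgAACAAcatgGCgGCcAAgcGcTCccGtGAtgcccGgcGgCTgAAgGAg
Nfil3: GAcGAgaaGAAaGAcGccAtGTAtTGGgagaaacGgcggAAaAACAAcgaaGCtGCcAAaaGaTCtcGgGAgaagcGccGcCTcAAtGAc
Tef matched Dbp at 65 of the 90 bases (72.2%), Hlf at 60 (66.7%) and Nfil3 at 53 (58.9%). The stretches were found by a search for the 90 coding bases of Dbp with the most matches, summed over the other genes. These shares are therefore the highest by choice and were not tested.

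Promoters, taken as 250 bases before to 50 bases after a RefSeq start (GRCm38.p6), were found for 8 of the 9 genes and not for Bhlhe40. They were searched on both strands for the E-box CACGTG, the D-boxes TTATGTAA and TTACGTAA, and the ROREs TAGGTCA and TGGGTCA. Among the members no match overlapped another. An E-box stood in the promoters of Ciart, Tef and Bhlhe41, and in 7.15% of all 32851 promoters. Ciart held 3 of them, the first bases of which lay at -116, -58 and -44 from the start. The only RORE among the members was that of Nfil3, on the strand opposite to the gene (6.45% of all promoters held one). No member held a D-box, which was found in 1.06% of all promoters. No match was found for Dbp, Hlf, Rora or Usp2 within these windows, and the window of Usp2 belongs to a start 17899 bases inside the gene. The stretches that hold the E-boxes are shown without bases that any annotated exon covers, with the E-boxes in capitals, because they place the 2 called genes Tef and Bhlhe41 beside Ciart, which was not called. The stretch of Ciart is chr3:95882252-95882478 (minus strand), that of the second Tef start is chr15:81811164-81811413 (plus strand), and that of Bhlhe41 is chr6:145865559-145865670 (minus strand). The second Tef start lies 8993 bases inside the gene. The 250 bases before the first Tef start also held 1 E-box, but annotated exons cover them, so they are not shown.
Ciart: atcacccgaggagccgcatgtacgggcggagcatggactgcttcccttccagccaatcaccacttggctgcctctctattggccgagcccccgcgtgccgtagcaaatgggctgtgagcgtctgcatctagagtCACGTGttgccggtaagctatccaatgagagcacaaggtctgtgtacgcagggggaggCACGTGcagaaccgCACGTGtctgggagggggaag
Tef: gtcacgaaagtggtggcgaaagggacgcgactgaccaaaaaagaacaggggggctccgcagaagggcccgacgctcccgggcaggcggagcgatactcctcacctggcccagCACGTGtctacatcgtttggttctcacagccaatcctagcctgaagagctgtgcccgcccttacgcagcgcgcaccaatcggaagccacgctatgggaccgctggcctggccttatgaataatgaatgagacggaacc
Bhlhe41: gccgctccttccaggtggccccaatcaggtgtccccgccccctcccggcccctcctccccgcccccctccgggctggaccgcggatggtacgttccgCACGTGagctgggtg
For Nfil3, 29 bases around the RORE are shown as the gene reads (chr13:52981040-52981068, minus strand), so that the capitals are the reverse complement of TAGGTCA.
Nfil3: agcgcggcgctcggaacTGACCTActaac
Ciart had the most E-box matches, and its log2 fold change, given below, has an interval that includes 0. The search covered only exact matches within these windows. A link between E-boxes and the differences described next was not tested.

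Each lung had between 16501092 and 18141067 read pairs assigned to genes. Any 2 lungs of a genotype differed by 5.71 to 9.16 chi-square units per degree of freedom over the genes tested, where 1 is sampling noise, so no lung was a repeat of another. WT replicate 3 stood apart from the other WT lungs: its distance to them (9.16 and 8.72) was within or above its distance to the R/R lungs (7.88 to 9.01). The epithelial markers were abundant in all 6 lungs, with summed levels of 28518 to 38997 CPM. Cardiac muscle markers varied within both genotypes (22.3 to 71.6 CPM summed in R/R lungs, 22.3 to 186 CPM in WT lungs). The adipose gene Adipoq had 10 read pairs in R/R replicate 3 and 17 in WT replicate 3, and 0 in the other lungs. Rbm47 itself differed by 0.10 on the log2 scale (SE 0.08, adjusted p = 0.660, edgeR). This does not check the labels, since a count per gene does not show the substitutions.

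In R/R lungs, Dbp, Tef and Bhlhe41 rose, by 1.78-, 1.39- and 1.67-fold, and no clock output gene fell in edgeR, DESeq2 or limma-voom. Calls were made with edgeR's quasi-likelihood test, at an adjusted p of 0.05 (Benjamini-Hochberg over the 17120 genes). By this rule 3 of the 9 members were called, against 1.75% of all genes. All 3 were higher in R/R lungs, where 0.648% of genes were called higher and 1.1% lower. At an unadjusted p of 0.05, 6 members were higher and 1 was lower, against 14.2% of all genes (6.54% higher and 7.68% lower). Levels are given as CPM, read pairs relative to the total of a lung after TMM scaling. In 6 members every R/R lung lay above every WT lung, as in 9.17% of genes. In 1 member, Nfil3, every R/R lung lay below every WT lung, as in 9.5% of genes. Either kind of separation was seen in 18.7% of all genes. The median log2 fold change was 0.41 over the members and 0.0045 over all genes. Without WT replicate 3, 4 members were called, the fourth being Bhlhe40 (log2 fold change 0.56, adjusted p = 0.0238), beside 621 genes in all. Dbp, Tef and Bhlhe41 stayed called when any 1 of the 6 lungs was left out. With 3 lungs against 3, an exact two-sided permutation test of a single gene cannot go below p = 0.1, the value that each of the 7 separated members reached. In RNA of whole lung, a change in the number of cells of a type and a change in RNA per cell cannot be told apart.

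**Figure D1:**
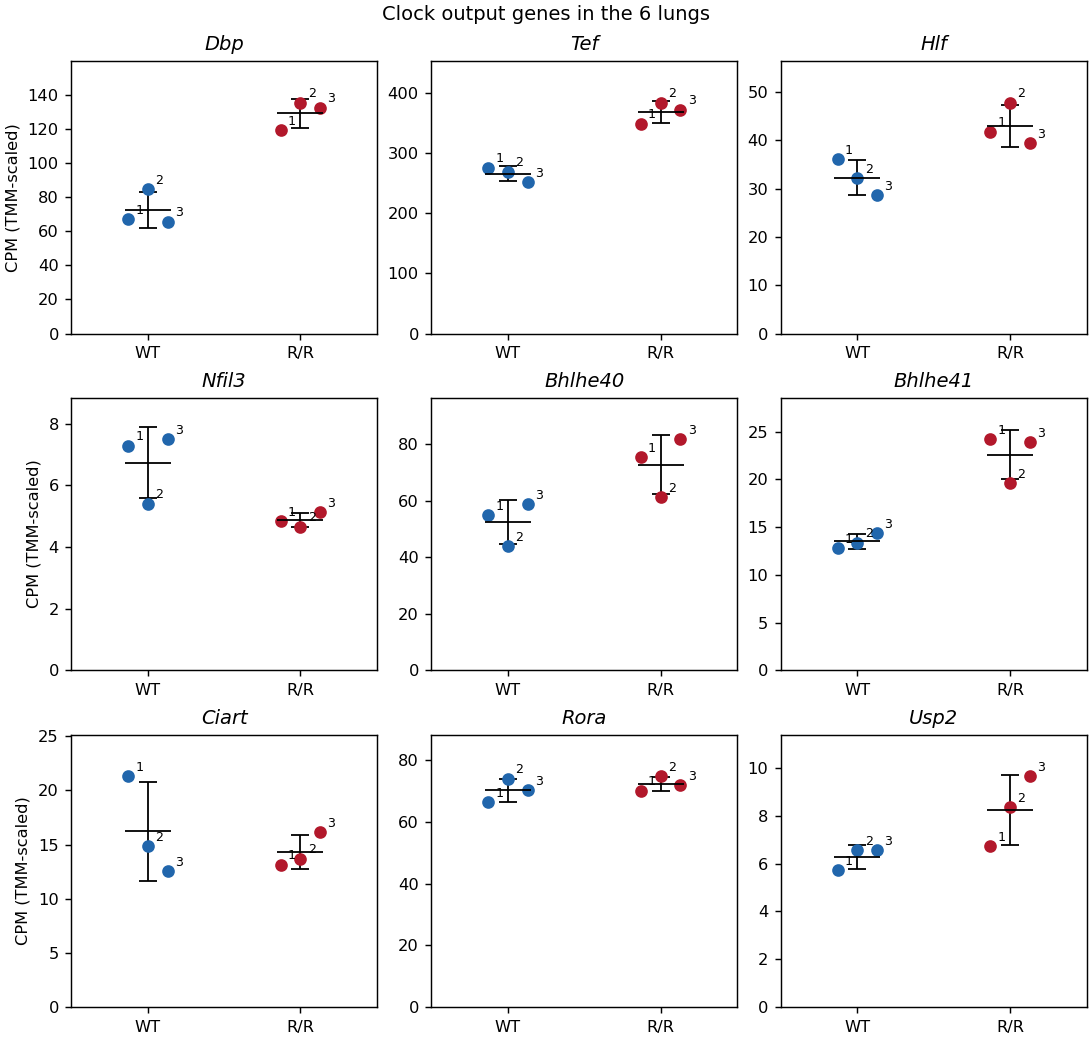
Levels of the 9 clock output genes (vertical axes, TMM-scaled CPM from 0) in WT and R/R lungs. Each numbered point is 1 lung and shows its replicate number, and the bars are the mean and SD of 3 lungs. The genotypes do not overlap in any panel other than those of Ciart and Rora.

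Dbp, the PAR bZIP gene with the widest daily swing in most tissues, was the member with the largest difference. It lies at chr7:45705088-45710203 on the plus strand. Its level was 119, 135 and 132 CPM in R/R replicates 1 to 3, and 66.8, 84.7 and 65.5 CPM in WT replicates 1 to 3. The lowest R/R lung was thus above the highest WT lung by more than the SD of either group (8.54 CPM in R/R, 10.8 CPM in WT, n = 3 each). The log2 fold change was 0.83 (SE 0.09, 95% interval 0.63 to 1.04, edgeR adjusted p = 0.00193), which placed Dbp at rank 14 of the 17120 genes by p. Of its exon bases, 18.0% are shared with Sphk2 on the opposite strand, and the counting did not use strand. Sphk2 differed by -0.02 on the log2 scale (adjusted p = 0.932).

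Tef, at chr15:81802421-81826863 on the plus strand, had the most read pairs of the set. It was at 349, 384 and 372 CPM in R/R lungs and at 276, 269 and 251 CPM in WT lungs. The groups lay apart by a gap of several SDs of either group (17.8 CPM in R/R, 12.6 CPM in WT), and the log2 fold change was 0.47 (SE 0.06, 95% interval 0.34 to 0.61, edgeR adjusted p = 0.00658).

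Hlf, the third PAR bZIP gene, lies on the minus strand at chr11:90336536-90390895. R/R lungs had 41.7, 47.8 and 39.3 CPM, and WT lungs had 36.0, 32.1 and 28.6 CPM. The groups did not overlap, although the lowest R/R lung and the highest WT lung were within 1 SD of each other (4.34 CPM in R/R, 3.70 CPM in WT). Its log2 fold change of 0.41 (SE 0.10, 95% interval 0.20 to 0.63) did not pass the threshold (edgeR adjusted p = 0.0645). DESeq2 called it (adjusted p = 0.0128).

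Nfil3 (chr13:52967209-52981073, minus strand) encodes the repressor that competes with the PAR bZIP factors. It was at 4.83, 4.66 and 5.12 CPM in R/R lungs and at 7.29, 5.41 and 7.49 CPM in WT lungs. The R/R lungs were closely grouped (SD 0.234 CPM), whereas WT replicate 2 lay well below the other WT lungs and near the R/R range. With a log2 fold change of -0.46 (SE 0.17, 95% interval -0.84 to -0.08), Nfil3 had an edgeR adjusted p of 0.242. Nfil3 had the fewest read pairs of the set when summed over the 6 lungs, with 78 to 128 in a lung.

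Because the activators and Nfil3 are alike in their basic regions, their levels were also set against each other within each lung, on the scale of read pairs per exon base. The Dbp level was 16.7, 19.6 and 17.5 times the Nfil3 level in R/R lungs, and 6.21, 10.6 and 5.91 times in WT lungs. For Tef the ratio to Nfil3 was 19.5 ± 1.47 in R/R and 10.4 ± 2.16 in WT lungs (mean ± SD, n = 3 each). For Hlf the ratio was 2.69 ± 0.393 in R/R and 1.49 ± 0.321 in WT lungs. In all 3 ratios every R/R lung was above every WT lung. These ratios follow from the levels above and were not tested, and they are ratios of RNA, not of protein.

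Bhlhe41 (chr6:145858243-145865558, minus strand), which represses E-box genes, was the second of the set by size of its difference. R/R lungs had 24.2, 19.6 and 23.9 CPM and WT lungs 12.8, 13.4 and 14.3 CPM. The WT lungs were tightly grouped (SD 0.775 CPM), and the lowest R/R lung, replicate 2, was still clear of them. The log2 fold change was 0.74 (SE 0.11, 95% interval 0.51 to 0.97, edgeR adjusted p = 0.00893). Of the exon bases of Bhlhe41, 19.0% are shared with Gm43909 on the opposite strand, to which 33 read pairs were assigned over all 6 lungs.

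Bhlhe40, its partner at chr6:108660629-108666925 on the plus strand, was at 75.5, 61.3 and 81.8 CPM in R/R lungs and at 54.9, 43.9 and 58.8 CPM in WT lungs. Replicate 2 was the lowest lung in both groups, and the gap between the groups was small beside the SDs (10.5 CPM in R/R, 7.70 CPM in WT). The log2 fold change was 0.47 (SE 0.12, 95% interval 0.22 to 0.73, edgeR adjusted p = 0.0714). DESeq2 called it (adjusted p = 0.00441).

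Markers of alveolar macrophages, cells that use both Bhlhe genes, were read in the same lungs. All 8 of 8 had a positive log2 fold change (median 0.38), 2 of them were called, and their summed level was 852 to 983 CPM in R/R lungs and 542 to 756 CPM in WT lungs. The called markers were the chitinase-like gene Chil3 (log2 fold change 0.68, edgeR adjusted p = 0.0233) and the mannose receptor gene Mrc1 (0.42, edgeR adjusted p = 0.0486). Of the 8 markers, DESeq2 called 4, all higher, and limma-voom called only Chil3. In edgeR 6 were higher at an unadjusted p of 0.05, against 6.54% of all genes. In 5 every R/R lung lay above every WT lung, against 9.17% of all genes. Set against the geometric mean of the 8 markers in CPM, Bhlhe40 was at 1.62 ± 0.135 in R/R and 1.56 ± 0.267 in WT lungs (mean ± SD, n = 3 each), so the groups overlapped. Bhlhe41 was at 0.501, 0.489 and 0.520 in R/R lungs and at 0.437, 0.420 and 0.351 in WT lungs, which did not overlap. Over the 8 markers the log2 fold change ranged from 0.016 to 0.78, beside 0.74 for Bhlhe41. The ratios therefore depend on which markers are averaged. They are no test, and the part of macrophage RNA in either result was not tested.

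Ciart, whose protein represses BMAL1 with CLOCK, lies on the minus strand at chr3:95878503-95882251. It was at 13.2, 13.7 and 16.1 CPM in R/R lungs and at 21.3, 14.8 and 12.5 CPM in WT lungs. The WT lungs alone covered the whole R/R range. The log2 fold change was -0.18 (SE 0.17, 95% interval -0.55 to 0.20, edgeR adjusted p = 0.713), and it was 0.062 without WT replicate 1, so no direction can be given. Among the 9 genes, Ciart had the largest SD of log2 CPM among the WT lungs (0.39).

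Rora (chr9:68653786-69388246, plus strand), the activator of RORE genes, had the closest groups of all members. It was at 70.1, 74.9 and 72.0 CPM in R/R lungs and at 66.5, 74.1 and 70.3 CPM in WT lungs. These ranges overlapped almost fully. Rora had a log2 fold change of 0.04 (SE 0.06), and its 95% interval of -0.10 to 0.18 leaves room for a difference of at most 1.13-fold upward and to 0.935-fold downward.

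Usp2 (chr9:44067021-44095627, plus strand) encodes an enzyme that removes ubiquitin from PER1 and other proteins. Its R/R lungs had 6.72, 8.37 and 9.66 CPM and its WT lungs 5.71, 6.57 and 6.56 CPM. R/R replicate 1 lay just above the WT lungs and replicate 3 well above them. Usp2 had a log2 fold change of 0.39 (SE 0.17, 95% interval 0.03 to 0.75) and an edgeR adjusted p of 0.308.

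Levels of different genes can be compared only per exon length, so counts were also expressed as RPKM, the CPM per kilobase of exon. In WT lungs the order was Tef (33.7 ± 1.61 RPKM, mean ± SD, n = 3), Dbp (24.2 ± 3.59), Bhlhe40 (11.2 ± 1.64), Ciart (7.18 ± 2.01), Rora (5.38 ± 0.291), Hlf (4.83 ± 0.553), Nfil3 (3.32 ± 0.567), Bhlhe41 (2.01 ± 0.115) and Usp2 (1.30 ± 0.102). The lungs of neighbours in this order overlapped for Bhlhe40 and Ciart, Ciart and Rora, and Rora and Hlf, and not for the other neighbours. In R/R lungs Tef (46.8 ± 2.26 RPKM) and Dbp (43.1 ± 2.85) overlapped, Hlf (6.43 ± 0.649) and Ciart (6.34 ± 0.704) overlapped, and the mean of Hlf was above that of Rora (5.53 ± 0.185). Bhlhe41 (3.36 ± 0.383 RPKM) was above Nfil3 (2.40 ± 0.115) in every R/R lung, and below it in every WT lung. Of the exon bases of Dbp and Bhlhe41, 18.0% and 19.0% are shared with genes on the opposite strand. How far this alters their RPKM, their place in the order and the ratios of Dbp to Nfil3 was not tested.

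**Figure D2:**
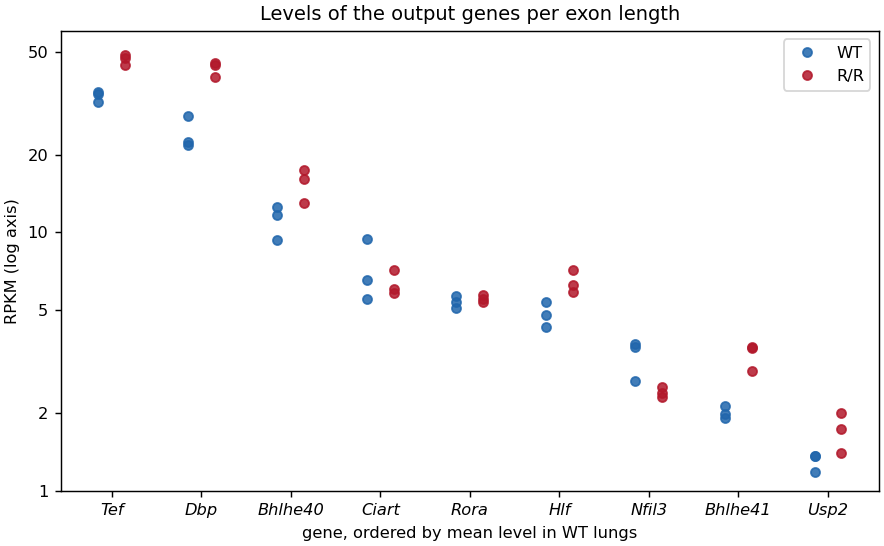
Levels of the 9 genes per exon length (vertical axis, RPKM on a log scale), ordered by their mean in WT lungs. Each point is 1 lung, with WT in blue and R/R in red. Tef and Dbp are the highest in both genotypes, and Nfil3 and Bhlhe41 change places.

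The core clock genes that drive the output factors were described from a list of 10 genes. In the same test, 5 of the 10 were called, against 1.75% of all genes. Among the 6 genes repressed in the feedback loop, which run in phase with Dbp or follow it, Per3 (log2 fold change 0.62, edgeR adjusted p = 0.0238), Cry2 (0.29, adjusted p = 0.0325) and Nr1d2 (0.49, adjusted p = 0.00784) rose. All 6 had positive values, and those of Nr1d1 (0.32), Per1 (0.87) and Per2 (0.58) did not pass the threshold. Among the 4 genes of the opposite phase, Arntl (-0.82, adjusted p = 0.0444) and Npas2 (-1.32, adjusted p = 0.00893) fell, while Clock (-0.12) and Cry1 (-0.10) did not pass it. Over the 10 genes the median log2 fold change was 0.31, against 0.0045 over all genes. The number called was 2 without R/R replicate 2, 2 without R/R replicate 3 and 3 without WT replicate 1. DESeq2 called 6, adding Nr1d1, and limma-voom called 4, without Arntl. The part of the hour of collection in these values and in those of the output factors was not tested.

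**Figure D3:**
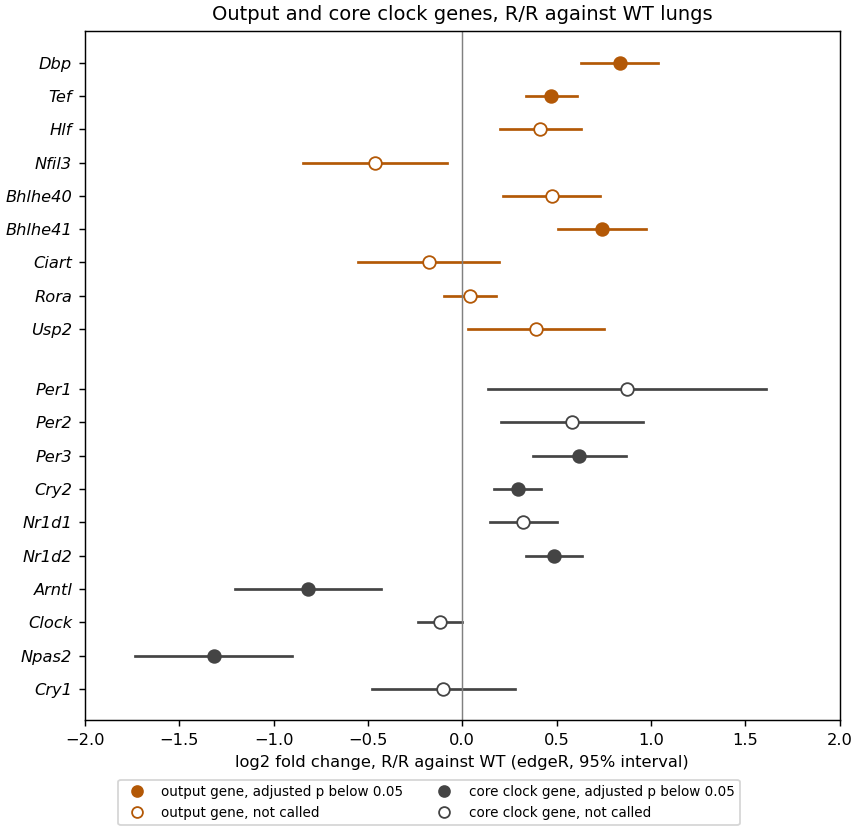
Log2 fold changes of R/R against WT lungs (horizontal axis, edgeR, 95% intervals) for the 9 output genes above and the 10 core clock genes below. Filled points passed an adjusted p of 0.05. Of the output genes, Dbp (0.83), Bhlhe41 (0.74) and Tef (0.47) are filled, and of the core genes Npas2 (-1.32) is farthest from 0.

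**Figure D4:**
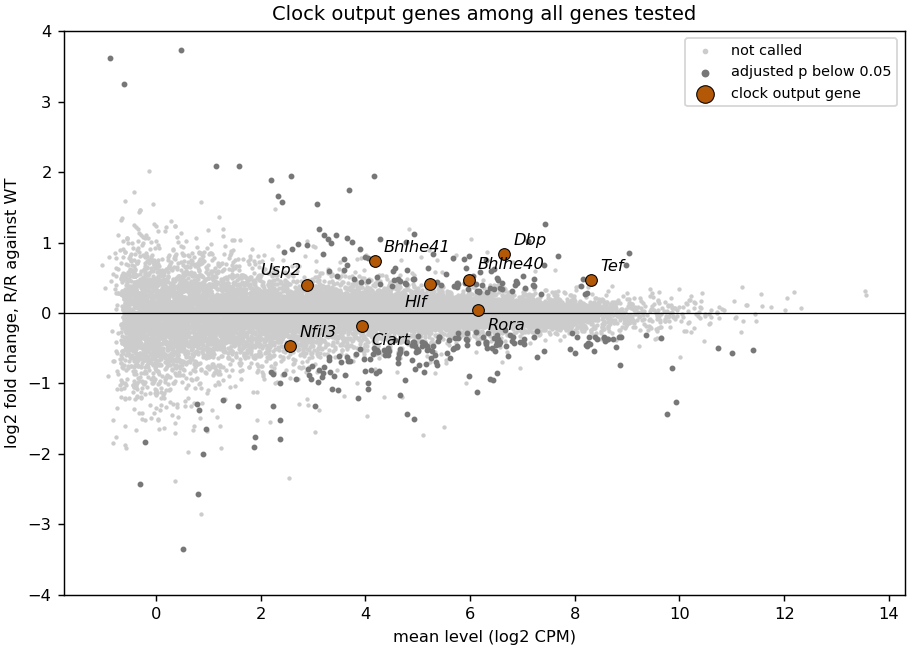
Log2 fold change of R/R against WT lungs (vertical axis) against mean level (horizontal axis, log2 CPM) for the 17120 genes tested. Dark grey points are the 300 called genes and orange points are the 9 output genes, and 3 genes lie outside the vertical range. Dbp and Bhlhe41 stand at the upper edge of genes of their level, and Rora and Ciart lie among the genes that were not called.

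The lungs of one genotype did not hold the members in a fixed order. R/R replicate 2 had the highest level of 4 members (Dbp, Tef, Hlf and Rora) and the lowest of 1 (Nfil3). WT replicate 3 had the lowest level of 4 members (Dbp, Tef, Hlf and Ciart) and the highest Nfil3. Per1, a core gene that light and glucocorticoids also induce, was at 48.7, 149 and 115 CPM in R/R lungs and at 81.4, 51.8 and 37.6 CPM in WT lungs. R/R replicate 1 was thus below WT replicates 1 and 2 for Per1, whereas for Dbp it was above all WT lungs. Arntl was at 14.5, 10.04 and 9.84 CPM in R/R lungs and at 20.9, 15.7 and 24.2 CPM in WT lungs. Npas2 was at 2.50, 2.81 and 2.59 CPM in R/R lungs and at 5.53, 6.57 and 7.61 CPM in WT lungs, the largest log2 fold change in size among the output and core genes.

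**Figure D5:**
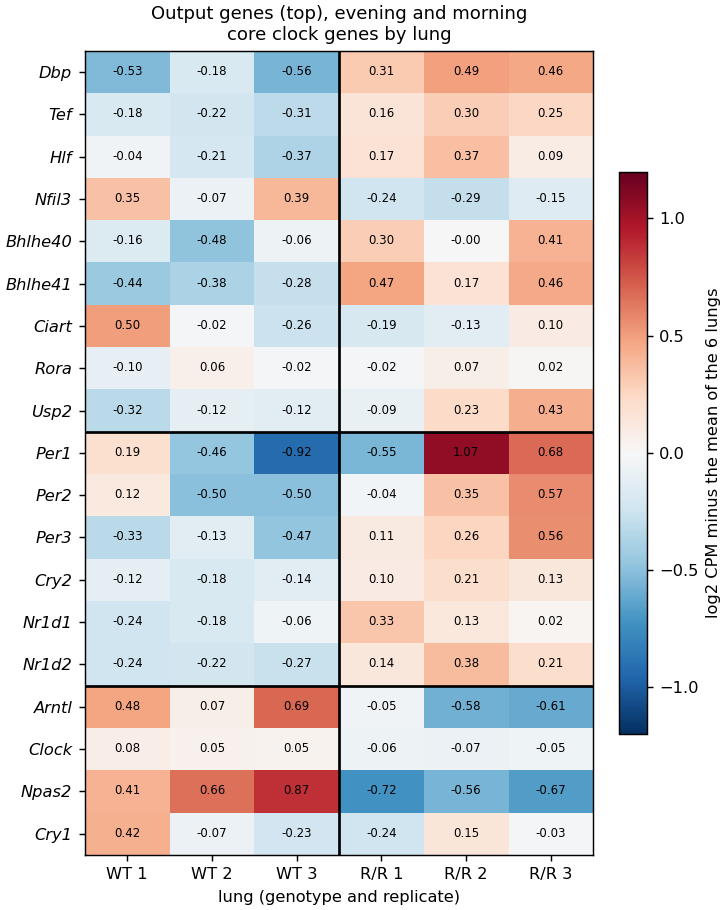
Log2 CPM of the 9 output genes and 10 core clock genes (rows) in each lung (columns), after subtraction of each gene's mean over the 6 lungs. Red is above and blue below that mean. Dbp, Tef, Hlf and Bhlhe41 are above it in all R/R lungs and below it in all WT lungs, and Arntl, Clock and Npas2 go the other way. Nfil3 is below it in all R/R lungs and in WT replicate 2.

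Likeness of pattern was measured as the root mean square difference between log2 CPM profiles over the 6 lungs, each centred on its own mean, among the 14191 other genes whose log2 CPM averaged 1 or more. The genes most like Dbp were Cyp1a1 (difference 0.0966), Tmem181b-ps (0.156), Efcab7 (0.160), the core clock gene Per3 (0.162) and Tfec (0.166). Cyp1a1, which encodes an oxidase induced through the aryl hydrocarbon receptor, was at 78.6, 84.2 and 78.3 CPM in R/R lungs and at 45.1, 48.0 and 44.1 CPM in WT lungs. The genes most like the mean profile of Dbp, Tef and Hlf were 2210408F21Rik (0.0708), Gm15787 (0.0719), the core clock gene Nr1d2 (0.0731), the histone deacetylase gene Hdac11 (0.0903) and Selenom (0.0922). Tmem181b-ps is a copy of other genes, so its count is uncertain. The genes Efcab7, Tfec, 2210408F21Rik and Gm15787 were not called by edgeR. Against Dbp, the other members stood at 0.205 (Bhlhe41), 0.217 (Tef), 0.272 (Hlf), 0.277 (Usp2), 0.344 (Bhlhe40), 0.411 (Rora), 0.569 (Ciart) and 0.703 (Nfil3). Set among the 14191 genes, these differences would rank 29, 38, 138, 156, 761, 3548, 12562 and 13736, in the same order. No likeness was tested, and all profiles share the same 6 lungs and depths.

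Of 8 genes known as targets of the PAR bZIP factors, 7 were tested and none was called by edgeR, DESeq2 or limma-voom. In edgeR 2 passed an unadjusted p of 0.05, both higher, against 6.54% of all genes. The median log2 fold change was 0.14. The smallest p belonged to Alas1, the first enzyme of heme synthesis (log2 fold change 0.29, SE 0.10, adjusted p = 0.216), and to Pdxk, the pyridoxal kinase that DBP, TEF and HLF control in liver and brain (0.18, SE 0.08, adjusted p = 0.331). Alas1 was at 204, 266 and 265 CPM in R/R lungs and at 211, 176 and 214 CPM in WT lungs, which overlapped. Pdxk was at 31.4, 32.5 and 33.0 CPM in R/R lungs and at 30.8, 27.5 and 27.5 CPM in WT lungs, which did not. Nr1i3, the remaining target, had 0 read pairs in every R/R lung and 1, 1 and 2 in the WT lungs. Among the core clock genes, the promoter of Per3 held 2 D-boxes (first bases at -205 and -158), which are shown with the D-box in capitals as the gene reads, from chr4:151044853-151044881 and chr4:151044806-151044834 on the minus strand.
Per3: cgacccgcgcgTTATGTAAggtactcggg
Per3: cccgcccgcggTTATGTAAcccccgccgt
Per3 rose and was the core clock gene nearest to Dbp in the profiles. Cry2 and Nr1d2 also rose, and their promoters held none of the motifs searched for. Whether the D-boxes have a part in the level of Per3 was not tested. Among 8 other rhythmic genes, Tspan4 rose (0.52, adjusted p = 0.0353, edgeR) and the median was 0.30, where edgeR called 0.648% of all genes higher. At an unadjusted p of 0.05, 4 of the 8 were higher and 0 lower, against 6.54% and 7.68% of all genes. DESeq2 called 3 of them, all higher, and limma-voom called only Tspan4.

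Genes of pathways that can act on the clock genes directly were counted in the same way. Of 10 glucocorticoid-induced genes tested, Cebpd rose (log2 fold change 0.75, edgeR adjusted p = 0.0486), and the median was 0.20. DESeq2 and limma-voom called none of them. Cebpd was at 70.9, 133 and 94.2 CPM in R/R lungs and at 60.1, 57.6 and 59.9 CPM in WT lungs. It was highest in R/R replicate 2, as were Per1 and the PAR bZIP genes, but not every gene of the list was. Of the 10 genes, 7 had positive values and 3 negative. At an unadjusted p of 0.05, 4 were higher and 1 was lower, against 6.54% and 7.68% of all genes. Of 15 immediate early genes, Nr4a1 rose (0.76, edgeR adjusted p = 0.0148), all 15 had positive values, and the median was 0.47. At an unadjusted p of 0.05, 13 of the 15 were higher, against 6.54% of all genes. In 10 every R/R lung lay above every WT lung, against 9.17% of all genes. DESeq2 called 4 of them and limma-voom 2, all higher and both including Nr4a1. Of 11 hypoxia-induced genes, 3 passed an unadjusted p of 0.05, all higher, against 6.54% of all genes. None of the 11 was called by edgeR, DESeq2 or limma-voom, and their median was 0.09. The smallest p among them belonged to Slc2a1 (0.35, adjusted p = 0.0673) and Bnip3 (0.39, adjusted p = 0.133). The part of these pathways in the values of the output genes was not tested.

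Markers of other cell types were counted as well, beside 0.648% of all genes called higher and 1.1% called lower by edgeR. All 5 B cell markers had negative values, and 3 fell: Ms4a1 (log2 fold change -0.99), Pax5 (-0.58) and Cd79a (-0.67), with edgeR adjusted p-values of 0.00675 to 0.0491. The summed level of the 5 markers was 61.6 to 85.4 CPM in R/R lungs and 108 to 140 CPM in WT lungs. At an unadjusted p of 0.05, 4 of the 5 were lower, against 7.68% of all genes. In 4 every R/R lung lay below every WT lung, against 9.5% of all genes. DESeq2 called 4 of the 5, and limma-voom called only Ms4a1. Of 6 T cell markers none was called by edgeR, DESeq2 or limma-voom (3 at an unadjusted p of 0.05, all lower, against 7.68% of all genes). In all 6, every R/R lung lay below every WT lung, against 9.5% of all genes. Their summed levels were 23.8 to 30.2 CPM in R/R lungs and 34.7 to 43.1 CPM in WT lungs. Cd5 (-0.75, adjusted p = 0.0901) and Lck (-0.52, adjusted p = 0.148) had the smallest p. Nfil3 is also used by group 2 innate lymphoid cells and other lymphocytes, and the part of these cells in its value was not tested. Of the 4 tested markers of group 2 innate lymphoid cells Areg rose (1.66, edgeR adjusted p = 0.0434), which limma-voom did not call, and Gata3 and Il1rl1 differed by 0.13 and -0.14. Il13 and Il5 had at most 7 read pairs in a lung. Summed over the list, these markers were at 27.8 to 37.2 CPM in R/R and 24.7 to 28.3 CPM in WT lungs. Of 10 epithelial markers Aqp5, a water channel of alveolar type 1 cells, rose (0.27, edgeR adjusted p = 0.0459), and the median was 0.23. The values of 8 were positive and those of 2 negative. At an unadjusted p of 0.05, 5 were higher and 0 lower, against 6.54% and 7.68% of all genes. In 3 every R/R lung lay above every WT lung, against 9.17% of all genes. DESeq2 called 3 of the 10, all higher, and limma-voom called only Aqp5. No endothelial marker, fibroblast marker or cardiac muscle marker was called by edgeR, DESeq2 or limma-voom. At an unadjusted p of 0.05, 1, 2 and 2 of the 6 genes in each list passed, all lower, against 7.68% of all genes. The smallest p among endothelial markers belonged to Cdh5 (-0.16) and Cldn5 (-0.13), and among fibroblast markers to Col3a1 (-0.26) and Col1a2 (-0.20). Of the cardiac markers, Tnni3 (-1.29) and Tnnt2 (-0.99) had the smallest p. Of 2 thymus, 3 skeletal muscle and 2 adipose markers with enough read pairs, none was called by any of these tools. At an unadjusted p of 0.05, 1, 0 and 1 of them passed, against 14.2% of all genes. The thymus gene Rag2 and the skeletal muscle gene Myh4 were at 0 in all 6 lungs.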

How the data were processed

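RNA of 6 lungs (3 R/R, 3 WT) was sequenced from both ends of each fragment. Per the file headers and the submitters' processing notes, reads were aligned with HISAT2 2.1.0 to mm10 (GRCm38), and the authors counted pairs on GENCODE M25 genes with featureCounts 2.0.1, ignoring strand and pairs with several matches. These counts were deposited without normalization. One of the 6 deposited columns is recorded here as an estimated count only because its header line was misread by an automatic check, and all its values are whole counts. The deposited gene length was used for RPKM. The sources differ on RNA extraction (Trizol or RNeasy columns). Of 56262 gene identifiers, 55141 matched GENCODE M21 symbols.

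Calculations used R 4.3.3 and edgeR 4.0.16: filterByExpr (minimum count 10, minimum total 15), TMM, glmQLFit and glmQLFTest with genotype as the only term, and Benjamini-Hochberg adjustment over 17120 genes at 0.05. Common biological variation was 8.62%. In these libraries 1 read pair is 0.0551 to 0.0606 CPM, and such limits cover counting error only. The fits were tested on simulated data. Alternatives were DESeq2 1.42.0, limma-voom (limma 3.58.1), other scalings, filters and thresholds, the replicate block and each lung left out. Members and gene lists were chosen with earlier results of these data known. Named genes are all members and core clock genes, the called genes of each other list (at most 4, or, where none was called, at most 2 with the smallest p), and the 5 genes nearest in profile. Single genes outside this rule (Adipoq, Rbm47, Sphk2, Gm43909, Nr1i3, Il13, Il5, Gata3, Il1rl1, Rag2 and Myh4) were named after their values were seen. Of the gene lists, 1 core clock gene and 1 B cell marker are not reported here and were left out of the counts.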

Additional observations from a re-analysis of the deposited data

How the results depend on the processing

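Dbp, Tef and Bhlhe41 were called in all 8 alternative fits and in all 6 fits that left out 1 lung, with log2 fold changes of 0.76 to 0.96, 0.43 to 0.51 and 0.69 to 0.83 in the latter. DESeq2, the absence of a filter, the replicate block and a threshold of 0.1 each gave 5 called members, adding Hlf and Bhlhe40. Leaving out 1 lung gave 3 to 4 called members. The other alternatives gave 3. The log2 fold change of Ciart ranged from -0.34 (without WT replicate 3) to 0.062 (without WT replicate 1) with 1 lung left out. Of all genes, 541 were called by DESeq2, 1109 without a filter and 548 at a threshold of 0.1, against 300. Without R/R replicates 1, 2 and 3, 180, 76 and 117 genes were called, and without WT replicates 1, 2 and 3, 65, 110 and 621. Of the core clock genes, 8 were called without a filter, and 2 to 5 with 1 lung left out (2 without R/R replicate 2 or 3, 3 without WT replicate 1). The causes of these changes were not tested. Over all genes tested the replicate numbers showed no pairing. Same-numbered lungs had correlations of -0.014, -0.0036 and -0.015 between their deviations from the group means. Such correlations cannot exclude a pairing that shows in only a part of the genes. With the replicate block 446 genes and 5 members were called. Nfil3 and Usp2 had the fewest read pairs of the members, and so the largest relative counting error. Their SEs (0.174 and 0.165) were close to that of Ciart (0.171), which had more read pairs. The part of depth in these SEs was not tested.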
